A study of Mus musculus with 10 samples.

Results

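Chromatin accessibility of intestinal innate lymphoid cells (ILCs) from which RORgt alone had been deleted was compared with that of control ILCs, over the 2 RORgt-KO libraries and the 3 Control libraries among the 10 libraries of the series. All 36251 peaks outside the Y chromosome were taken, of 36262 in the table. The cells came by flow sorting from the lamina propria of the small intestine of C57BL/6 mice. They were assayed by ATAC-seq, which uses the Tn5 transposase to cut and tag open chromatin. Control mice carried Id2creERT2, a tamoxifen-inducible Cre recombinase expressed from Id2, and the tdRFP reporter. RORgt-KO mice carried both of these and loxP-flanked alleles for RORgt. All mice, controls included, had been fed tamoxifen several weeks before the sort. Id2 is expressed in all ILC lineages, so the Cre is not particular to group 3 ILCs. The labels do not give the surface markers used in the sort, nor the age and sex of the mice. Each library came from 1 mouse or from 2 or 3 pooled intestines. The p-values measure the spread between libraries within groups, estimated over all 10 libraries, with few in each group. These include the RORgt-Tbet-KO and RORgt-RORa-KO groups, in which T-bet or RORa was deleted together with RORgt.

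RORgt is a nuclear receptor that binds DNA as a monomer at a short hormone response element. It is required for group 3 ILCs to develop, and in mature cells it sustains the type 3 programme, the production of interleukin-17 and interleukin-22 that protects the gut barrier. The related type 1 programme, run by T-bet, gives interferon-gamma, responses to interleukin-12 and, in natural killer cells, cytotoxic granules. Some group 3 ILCs can lose RORgt and take on type 1 features in adult tissue. An ATAC-seq peak over a gene start or an enhancer reports that the DNA there was open, not that the gene was transcribed. In sorted populations, a change in the share of a cell subset and a change of accessibility per cell cannot be told apart.

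Levels below are the deposited log2 scaled read counts per peak, differences are RORgt-KO minus Control on that log2 scale, and each peak takes the name of the closest protein-coding gene up to 50 kb away, with its distance to the gene body. A peak is called higher or lower where limma's adjusted p, over all 36251 peaks, was under 0.05. The 2 RORgt-KO libraries lay clear of all 3 Control libraries in 99.6% of lower peaks, 99.3% of higher peaks and 40.1% of all peaks. Reads in peaks outside Y numbered 2518233 to 3381784 in Control and 2630478 and 3388680 in RORgt-KO, with 38 to 50 reads in the median peak of a library. The RORgt-KO libraries correlated at r = 0.940 across peaks and the controls with each other at 0.910 to 0.928. Control replicate 3 stood nearer to RORgt-KO (0.874 and 0.878) than the other controls did (0.828 to 0.841). It was the lowest control in 69.8% of lower peaks, beside 38.5% of all peaks. It was the highest control in 44.7% of higher peaks, beside 32.9% of all peaks. Reads in the 11 peaks on Y were 525, 582 and 1411 in Control and 802 and 942 in RORgt-KO, so the Y share differed between libraries of the same group, and its part in the results was not tested. Without the X chromosome, 4496 peaks passed the test. Markers of ILCs were open in both groups. Peaks at Id2 (0 of 6 called) and Gata3 (0 of 7) did not pass the test, 1 of 5 at Il7r and 1 of 5 at Thy1 were lower, and 2 of 10 at Ptprc were higher. The lower peak at Thy1 was its most open one (log2 difference -0.83).

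The start of Il17f carried a loss at a type 3 gene, and the starts of Nkg7, Xcl1, Prf1, Ifng and Il12rb2 carried gains at type 1 and cytotoxic genes. Siglecf had one of the largest start losses. Their 250 bases before the start are shown because the called peaks lie over them. Sequences come from RefSeq on GRCm38.p6 and are written 5′ to 3′ on the strand of the gene. Capitals mark matches on either strand to AGGTCA (the core of nuclear receptor elements), AGGTGTGA (T-box), TGANTCA (AP-1), TGTGGTT (RUNX) and TTCNNNGAA (STAT).
Il17f, chr1:20784271-20784520, minus strand: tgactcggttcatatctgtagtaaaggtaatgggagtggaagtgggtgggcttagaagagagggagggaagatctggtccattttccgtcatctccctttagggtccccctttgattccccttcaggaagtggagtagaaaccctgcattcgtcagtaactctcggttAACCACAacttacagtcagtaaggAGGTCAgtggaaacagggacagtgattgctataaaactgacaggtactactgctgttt
Siglecf, chr7:43351091-43351340, plus strand: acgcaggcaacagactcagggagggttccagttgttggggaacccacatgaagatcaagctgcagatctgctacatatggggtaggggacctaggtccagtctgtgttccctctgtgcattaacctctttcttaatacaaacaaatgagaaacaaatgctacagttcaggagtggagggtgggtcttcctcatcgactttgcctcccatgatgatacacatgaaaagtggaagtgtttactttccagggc
Nkg7, chr7:43436888-43437137, plus strand: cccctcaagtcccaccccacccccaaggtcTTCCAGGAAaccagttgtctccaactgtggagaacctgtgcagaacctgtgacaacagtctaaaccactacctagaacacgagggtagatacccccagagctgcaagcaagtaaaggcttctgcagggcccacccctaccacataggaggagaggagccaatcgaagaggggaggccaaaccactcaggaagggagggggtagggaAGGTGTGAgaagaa
Xcl1, chr1:164935523-164935772, minus strand: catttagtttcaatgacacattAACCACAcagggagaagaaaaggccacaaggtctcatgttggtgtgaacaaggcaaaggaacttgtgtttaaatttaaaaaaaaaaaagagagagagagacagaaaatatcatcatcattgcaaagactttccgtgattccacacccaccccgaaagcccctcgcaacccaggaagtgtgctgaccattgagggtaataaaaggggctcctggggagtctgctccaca
Prf1, chr10:61297586-61297835, plus strand: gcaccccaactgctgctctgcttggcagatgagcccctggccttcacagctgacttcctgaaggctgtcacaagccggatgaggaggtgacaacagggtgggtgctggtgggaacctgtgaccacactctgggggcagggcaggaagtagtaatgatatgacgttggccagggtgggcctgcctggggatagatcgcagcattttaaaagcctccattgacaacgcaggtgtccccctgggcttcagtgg
Ifng, chr10:118440796-118441045, plus strand: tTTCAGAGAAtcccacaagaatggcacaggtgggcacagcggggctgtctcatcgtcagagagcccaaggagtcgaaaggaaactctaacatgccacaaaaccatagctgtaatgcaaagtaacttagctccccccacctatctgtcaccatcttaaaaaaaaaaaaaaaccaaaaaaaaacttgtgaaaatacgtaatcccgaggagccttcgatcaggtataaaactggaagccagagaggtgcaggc
Il12rb2, chr6:67376189-67376438, minus strand: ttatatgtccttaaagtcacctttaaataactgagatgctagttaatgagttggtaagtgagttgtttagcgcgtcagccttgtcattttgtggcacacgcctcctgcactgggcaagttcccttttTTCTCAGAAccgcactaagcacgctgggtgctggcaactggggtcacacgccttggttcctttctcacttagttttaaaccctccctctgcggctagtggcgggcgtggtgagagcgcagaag

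In the Il17f window, AGGTCA begins 58 bases before the start and a RUNX match 82 bases before it. The Nkg7 window holds a T-box match 14 bases before the start and a STAT match at 220, and it has no AGGTCA. A RUNX match lies 228 bases before the start of Xcl1, and STAT matches lie 249 bases before Ifng and 123 before Il12rb2. The windows of Prf1 and Siglecf hold no match to any of these motifs. AGGTCA was found in 12.8% of all 21263 windows of this length, in 13 of 68 windows under lower peaks (19.1%), in 12 of 92 under higher peaks (13.0%) and in 9.53% of windows under peaks that were not called. The T-box letters were rarer, in 0.997% of all windows, in 3 of 92 under higher peaks and in 0 of 68 under lower ones. TGANTCA was in 6.13% of all windows, in 7 of 68 under lower and in 8 of 92 under higher peaks. RUNX letters were in 3.82% of all windows, in 4 of 68 under lower and in 3 of 92 under higher peaks. STAT letters were in 6.58% of all windows, in 3 of 68 and in 8 of 92. These counts describe letters in the windows and no binding was measured.

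Deletion of RORgt changed accessibility in both directions. Of 36251 peaks, 4463 (12.3%) were called, 2580 lower (7.12%) and 1883 higher (5.19%). The median lower peak went from a level of 6.63 in Control to 5.05 in RORgt-KO, and the median higher peak from 5.03 to 6.33. Lower peaks also differed by more: 2073 fell by at least 2-fold, 697 by at least 4-fold and 127 by at least 8-fold, against 1283, 247 and 29 of the higher peaks. Among 13149 genes with a peak, 1495 had at least 1 lower peak (11.4%) and 1319 at least 1 higher peak (10.0%). Of the 2572 genes with a called peak, 1253 had only lower ones, 1077 only higher ones and 242 both. Fewer peaks were called without RORgt-KO replicate 1 (1711) or without RORgt-KO replicate 2 (2093), and without Control replicate 2 the order of the directions turned, with 1606 higher and 1578 lower. Without Control replicate 3, 5092 peaks were called.

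**Figure D1:**
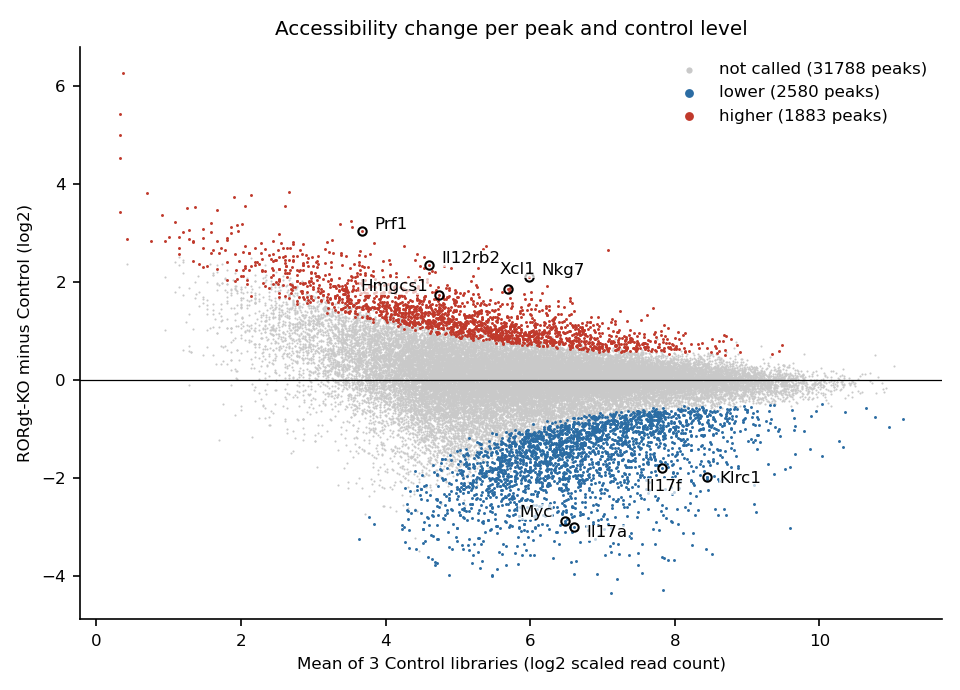
Each point is a peak, with its mean level in the 3 Control libraries on the x axis and its difference in RORgt-KO on the y axis, both log2. Lower peaks (blue, 2580) lie at medium to high control levels and higher peaks (red, 1883) reach down to the lowest levels; 9 peaks described in the text are ringed.

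Genes of the type 3 cytokine output lost accessibility. In a list of 12 such genes, 11 had a peak, and 12 of their 41 peaks (29.3%) were lower and 0 higher, beside 7.12% and 5.19% of all peaks. The 7 genes with a lower peak were Il17a, Il17f, Il22, Csf2, Ccl20, Hbegf and Tnfsf11, and Areg, Furin, Lta and Ltb had none. The median difference over the 41 peaks was -0.30, beside 0.02 over all peaks. Only Il17a and Il17f had a called peak when peaks were limited to 10 kb from the gene. The list counted 5 genes with a lower peak without RORgt-KO replicate 1 and 4 without RORgt-KO replicate 2.

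The adjoining genes of interleukin-17A and interleukin-17F formed the densest group of these losses. Their 8 peaks span 98.8 kb on chromosome 1, from 20685830 to 20784670, and 6 were lower. Summed reads over the 8 peaks were 1182, 1357 and 786 in Control and 543 and 385 in RORgt-KO, so even the lowest control lay above both knockouts. Over the start of Il17f (20784151 to 20784670), levels were 7.77, 8.07 and 7.64 in Control and 5.71 and 6.32 in RORgt-KO. The groups did not overlap there, as in 99.6% of lower peaks. The log2 difference was -1.81 (SE 0.27, 3.50-fold lower, limma adjusted p = 3.44e-05). A second peak of Il17f, 16924 bp from the gene, went from 8.08, 8.66 and 7.93 to 6.97 and 6.80 (difference -1.34). The peak between them, 10053 bp from the gene, did not pass the test, at 6.96, 7.24 and 6.87 in Control and 7.32 and 7.03 in RORgt-KO (adjusted p = 0.74). Around Il17a, the peak 44632 bp away held 77, 79 and 57 reads in Control and 11 and 7 in RORgt-KO. The peak 4946 bp from Il17a held 68, 85 and 42 reads against 8 and 11 (difference -2.74). The most open Il17a peak, 5891 bp from the gene, kept more of its reads, with 329, 319 and 203 against 128 and 84 (difference -1.42). Losses thus ranged from 1.14 to 3.01 on the log2 scale among the 6 lower peaks of the pair.

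Other type 3 mediators lost 1 or 2 peaks each, all at a distance from the gene. Interleukin-22, which acts on epithelial cells, had 1 lower peak of 4: 13890 bp from Il22 (chromosome 10, 118190146 to 118190694), 88, 99 and 59 reads in Control stood against 29 and 15 in RORgt-KO (difference -1.95, SE 0.37, limma adjusted p = 0.000607). The peak at the end of Il22 that begins at 118204392 read 6.97, 6.58 and 6.53 against 6.49 and 5.35 and missed the threshold (adjusted p = 0.10). At Tnfsf11, the gene of RANK ligand, a peak 22832 bp away went from 6.83, 6.15 and 6.00 to 4.87 and 4.11 (difference -1.84). Csf2 encodes GM-CSF, which acts on myeloid cells, and its peak 22518 bp away went from 7.02, 6.86 and 6.98 to 6.09 and 5.74 (difference -1.04). The peak 18712 bp from the chemokine gene Ccl20 read 7.14, 7.29 and 6.74 against 5.33 and 6.43 (difference -1.18), with the knockouts apart by more than the controls. Hbegf, which encodes an epidermal growth factor receptor ligand, had 2 lower peaks of 4, with differences of -1.67 and -1.24. In each of these peaks both knockouts lay below all controls, as in 99.6% of lower peaks.

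Receptors and surface molecules of group 3 ILCs did not share one direction. Of 93 peaks at 16 genes, 13 were higher and 6 lower (14.0% and 6.45%), beside 5.19% and 7.12% of all peaks. Il18r1, Il21r, Il2ra and Kit had only higher peaks, Cd93, Il7r and Thy1 only lower ones, and Il1r1 and Il23r had both. Il1r1 encodes the receptor for interleukin-1, a main activating signal of these cells, and 2 of its 14 peaks were lower and 3 higher. Inside Il1r1 (chromosome 1, 40279247 to 40279575) levels went from 6.48, 6.18 and 6.61 to 4.09 and 5.17 (difference -1.79, SE 0.41), while the peak inside the gene that begins at 40275104 went from 5.93, 5.80 and 6.03 to 6.69 and 7.03 (difference 0.94). At Il23r, the interleukin-23 receptor, 3 of 10 peaks were higher and 1 lower. The largest rise there, 7288 bp from the gene, was from 4.07, 3.54 and 4.48 to 5.64 and 5.82 (difference 1.70). Il21r, the interleukin-21 receptor, was higher in 4 of 5 peaks. Its intragenic peak (chromosome 7, 125607361 to 125608222) went from 5.66, 5.76 and 6.35 to 7.57 and 7.58 (difference 1.65, SE 0.24, limma adjusted p = 2.36e-05).

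Transcription factor genes of group 3 ILCs were also mixed, with 20 higher and 16 lower of 267 peaks (7.49% and 5.99%), both near the shares of all peaks. Bcl11b, Ikzf1, Runx1, Runx3, Stat3 and Zbtb16 had only higher peaks, and Ikzf2, Lef1, Maf, Sox4, Tox and Zbtb46 only lower ones. Runx1, a RUNX factor, rose at 4 of 19 peaks, by 0.67 to 1.51. Zbtb16 encodes PLZF, a factor of ILC precursors, and rose at 3 of 14 peaks by 0.88 to 0.94. Ikzf2, which encodes Helios, fell at 3 of 21. Rora, Ahr, Tcf7, Id2 and Notch1 had no called peak. A peak over the start of Sox4 went from 8.21, 8.41 and 8.12 to 7.36 and 7.90 (difference -0.62, limma adjusted p = 0.0471).

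Receptors and cytokines of type 1 immunity gained accessibility. Of 43 peaks at 12 genes, 15 (34.9%) were higher and 0 lower, beside 5.19% and 7.12% of all peaks. The median difference over the list was 0.52. Genes with a higher peak were Ifng, Ifngr1, Ifngr2, Il12rb2, Il18r1, Il18rap and Il21r; Il12rb1, Il15ra, Il27ra, Il2rb and Tnf had none. Il12rb1, Il18r1 and Il21r are also in the list of type 3 receptors, so the 4 higher peaks of Il21r and the 1 of Il18r1 count in both. The list counted 3 genes with a higher peak without RORgt-KO replicate 1 and 4 without RORgt-KO replicate 2.

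All 5 peaks of Il12rb2, the chain that makes the interleukin-12 receptor signal, were higher. Their summed reads were 93, 105 and 63 in Control and 356 and 228 in RORgt-KO. The largest difference was at a peak inside the gene (chromosome 6, 67367869 to 67368223) that held 6, 1 and 2 reads in Control and 29 and 22 in RORgt-KO. The peak at 67347988 read 4.62, 4.69 and 4.48 against 6.99 and 6.90, with little spread in either group. Over the start of the gene (67375855 to 67376428), where the controls were already open, levels went from 6.05, 6.33 and 5.92 to 7.23 and 6.86 (difference 0.95, SE 0.26, adjusted p = 0.0132). Il23r lies beside Il12rb2. Over the 15 peaks of both genes, in 163 kb, 8 were higher and 1 lower.

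Ifng, the interferon-gamma gene, passed the test at 1 of its 4 peaks. The one over its start (chromosome 10, 118440597 to 118441155) held 25, 24 and 20 reads in Control and 60 and 39 in RORgt-KO (difference 1.07, SE 0.30, adjusted p = 0.0167). The peak 21551 bp away read 6.78, 6.97 and 6.65 against 7.41 and 7.06 and was not called (adjusted p = 0.21). Il18rap, a chain of the interleukin-18 receptor, went inside the gene from 4.37, 4.28 and 5.20 to 6.14 and 6.11 (difference 1.51, SE 0.30). Ifngr2, a chain of the interferon-gamma receptor, went from 34, 52 and 20 reads to 91 and 71 (difference 1.29).

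Chemokine genes of type 1 cells opened as well, at 11 of 28 peaks (39.3%), beside 5.19% of all peaks. Lower peaks numbered 0, beside 7.12% of all peaks, and the median difference was 0.99. The 6 genes were Ccl3, Ccl4, Ccl5, Ccr2, Cxcr3 and Xcl1. Xcl1, which attracts dendritic cells, was higher at 4 of 8 peaks. Over its start (chromosome 1, 164935426 to 164936102) levels went from 5.33, 5.99 and 5.76 to 7.67 and 7.43 (difference 1.86, SE 0.25, 3.62-fold, adjusted p = 7.68e-06). A peak 18083 bp from Xcl1 held 8, 10 and 9 reads in Control and 38 and 33 in RORgt-KO. The peak 4070 bp from Ccl5 read 6.78, 6.30 and 6.91 against 7.82 and 7.57 (difference 1.03). Cxcr3, a receptor that guides type 1 cells to inflamed tissue, lies on X. Its peak 3033 bp away went from 6.18, 6.42 and 6.26 to 7.14 and 7.59 (difference 1.08). The more open peak at its gene end was not called, at 6.66, 7.27 and 6.38 against 6.45 and 7.09 (limma adjusted p = 0.99). Ccl3 and Ccl4 are related genes on the same chromosome, and whether reads were shared between them was not tested.

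**Figure D2:**
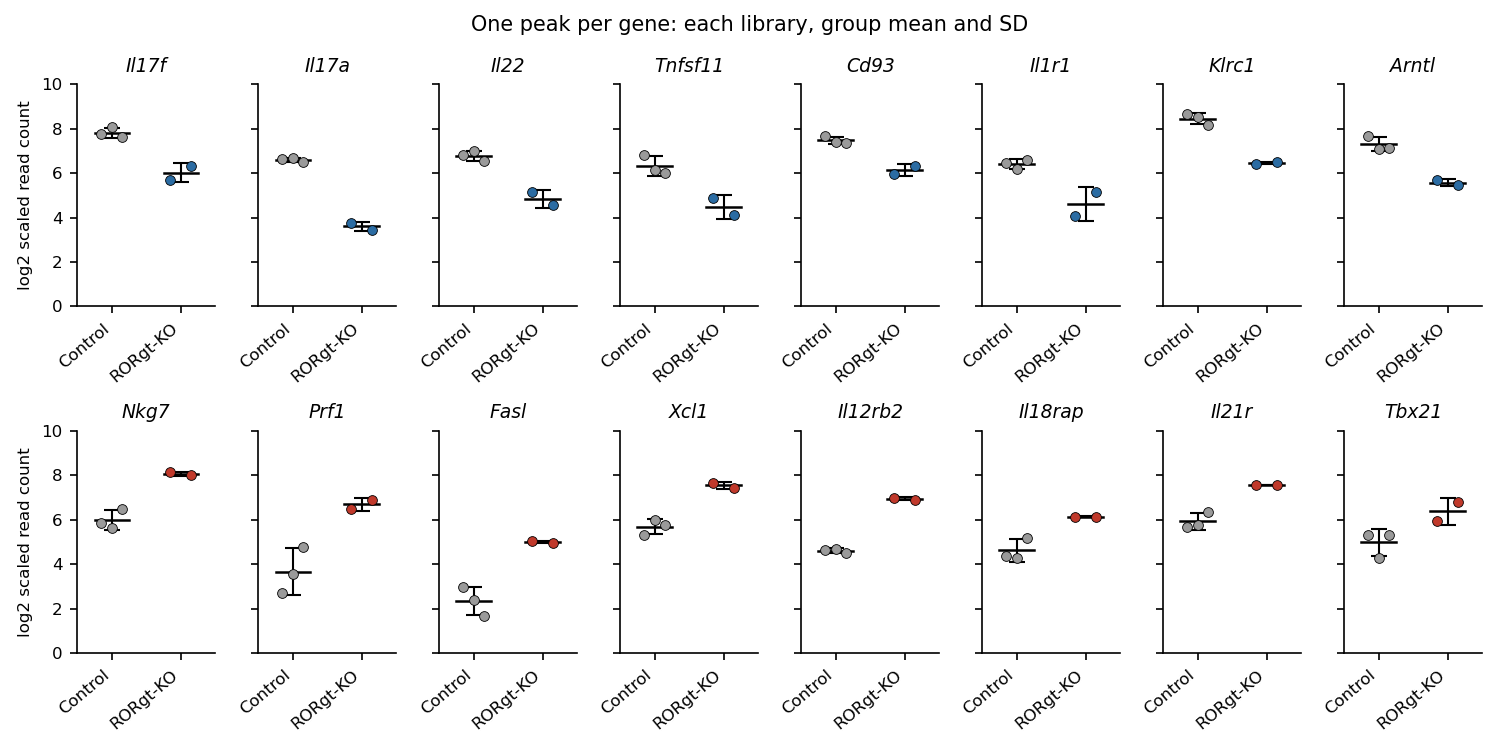
Level of 1 peak per gene in each library (points), with the group mean (horizontal line) and SD (bars; Control n = 3, RORgt-KO n = 2). The upper row holds 8 lower peaks and the lower row 8 higher ones. They were picked among called peaks, and in every panel the knockout points lie clear of the controls. The same holds for 99.6% of lower, 99.3% of higher and 40.1% of all peaks.

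Genes of cytotoxic granules and killing moved the same way. In 16 genes, of which 12 had a peak, 13 of 51 peaks (25.5%) were higher and 1 (1.96%) lower. The shares of all peaks were 5.19% and 7.12%. Ctsc, Fasl, Gzmb, Nkg7, Prf1, Rab27a, Serpinb9 and Tnfsf10 had only higher peaks, and Srgn had both. Over the start of Nkg7, a granule membrane protein, levels were 5.83, 5.62 and 6.48 in Control and 8.14 and 8.02 in RORgt-KO (chromosome 7, 43436391 to 43437339). This was the start peak with the largest increase, 2.10 (SE 0.22, 4.29-fold, adjusted p = 2.9e-07). Prf1, which encodes perforin, was higher at all 3 of its peaks. Its start (chromosome 10, 61297051 to 61297868) went from 6.26, 5.69 and 6.23 to 7.73 and 7.28 (difference 1.44, SE 0.23), and 3806 bp away a peak went from 5, 9 and 17 reads to 74 and 76. The peak 1248 bp from Fasl, the gene of Fas ligand, held 6, 4 and 2 reads in Control and 27 and 20 in RORgt-KO. Gzmb, the granzyme B gene, was called at 1 peak 25382 bp away (difference 0.74); the peak at its gene end read 5.50, 5.80 and 6.07 against 6.49 and 5.97 and was not called. Cytotoxic genes with a higher peak numbered 9, but 3 when RORgt-KO replicate 1 was left out and 5 when RORgt-KO replicate 2 was.

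Natural killer receptor genes were lower at 6 of 54 peaks (11.1%) and higher at 2 (3.70%), beside 7.12% and 5.19% of all peaks. A difference from the granule genes was not tested. Klrc1, which encodes the inhibitory receptor NKG2A, fell inside the gene from 8.65, 8.53 and 8.17 to 6.43 and 6.51 (chromosome 6, 129680217 to 129680864; difference -1.98, SE 0.24, 3.94-fold, limma adjusted p = 2.18e-06). Klrk1, the NKG2D gene, fell from 7.02, 6.75 and 6.43 to 5.19 and 5.94 (difference -1.17). Tyrobp, the adaptor DAP12, went at low depth from 3, 4 and 12 reads to 26 and 27. Over the start of Klrc3, which is not in this list, reads went from 5, 3 and 3 to 13 and 15 (difference 1.97, SE 0.66, limma adjusted p = 0.0471). Ncr1, Klrd1 and Klrb1c had no called peak. Klr genes sit in families of close copies, so reads there may be shared between members.

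The genes of the type 1 transcription factors themselves were mixed, with 4 higher and 5 lower of 64 peaks (6.25% and 7.81%). Both shares were near those of all peaks, 5.19% and 7.12%. Tbx21, which encodes T-bet, rose at 1 of 3 peaks, 8213 bp from the gene (chromosome 11, 97123544 to 97123936), from 5.33, 4.28 and 5.32 to 5.96 and 6.80 (difference 1.40, SE 0.36, limma adjusted p = 0.00809). Its peak at 97112532 inside the gene held 26, 26 and 20 reads against 47 and 35 and missed the threshold (adjusted p = 0.08). Zeb2, which encodes a factor that acts with T-bet in cytotoxic lymphocytes, fell at 4 of 10 peaks. The most significant, 26777 bp away, went from 9.23, 9.27 and 8.68 to 7.80 and 7.88 (difference -1.22, SE 0.19). Irf1, Irf8 and Hopx had only higher peaks and Stat4 only lower ones. Eomes and Runx2 had no called peak.

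**Figure D3:**
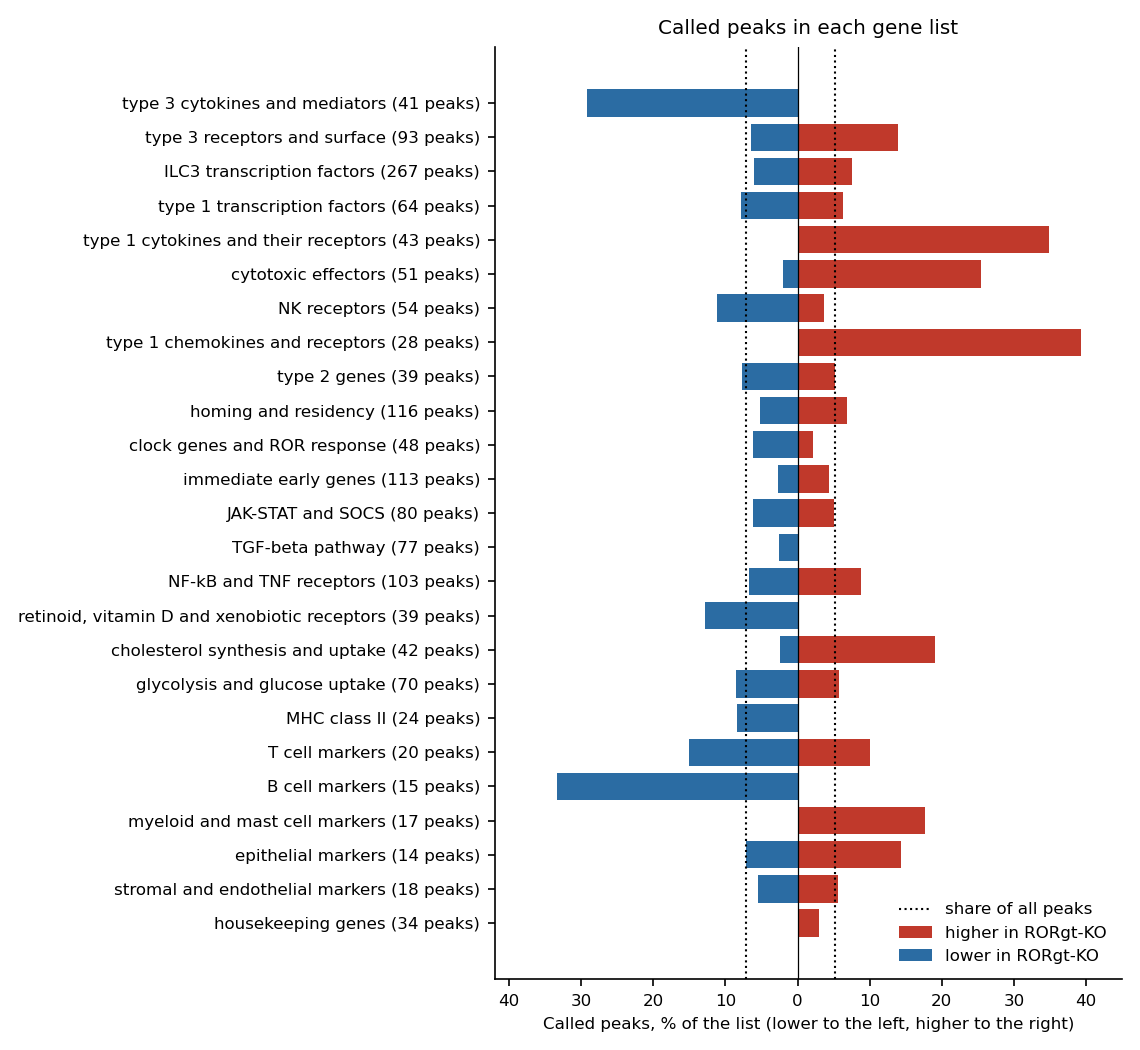
Share of the peaks of each of 25 gene lists that were higher (red, to the right) or lower (blue, to the left) in RORgt-KO, in percent; dotted lines mark the shares among all peaks, 5.19% and 7.12%. Type 3 cytokines extend only to the left (29.3%), and type 1 cytokine and chemokine lists only to the right (34.9% and 39.3%).

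Of 42 peaks at 16 cholesterol genes, 8 were higher (19.0%) and 1 lower (2.38%), beside 5.19% and 7.12% of all peaks. No peak was called at 10 of the 16 genes. Hmgcs1, an enzyme early in cholesterol synthesis, was higher at 3 of 4 peaks. The peak 8616 bp away (chromosome 13, 119681026 to 119681735) went from 4.83, 5.13 and 4.26 to 6.45 and 6.48 (difference 1.73, SE 0.28, limma adjusted p = 9.07e-05). The most open Hmgcs1 peak, over the gene end, was not called. It held 789, 788 and 521 reads in Control and 703 and 598 in RORgt-KO (difference -0.09). Sqle, squalene epoxidase, rose from 5, 5 and 10 reads to 33 and 21 at a peak 6993 bp away. Lss and Abcg1 also had a higher peak, and Srebf2, whose product activates the genes of this pathway, a lower one. Srebf1 and Insig1 had no called peak. The count of genes with a higher peak, 5, was 2 without RORgt-KO replicate 1.

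Some regulators that answer to nuclear receptors or to daily rhythm had called peaks. Among clock genes and known ROR targets, 3 of 48 peaks were lower (6.25%) and 1 higher (2.08%). Both shares were below those of all peaks, 7.12% and 5.19%. Arntl encodes BMAL1, whose promoter is a textbook site of ROR and REV-ERB control. The 1 called peak of its 4 lay not over a gene start but inside Arntl, 62700 bp from the nearest gene end. At this peak (chromosome 7, 113250772 to 113251426) levels fell from 7.68, 7.11 and 7.14 to 5.68 and 5.46 (difference -1.74, SE 0.28, limma adjusted p = 0.000105). Control of Arntl by ROR was not tested. Bhlhe40, a clock repressor, fell 19030 bp from the gene from 8.83, 8.68 and 8.57 to 7.42 and 7.06 (difference -1.45, SE 0.20). Per3 rose inside the gene from 6.90, 6.64 and 6.83 to 7.88 and 8.03 (difference 1.17). Clock, Per1, Per2, Nr1d1 and Nr1d2 had no called peak. Of the receptors for retinoids, vitamin D and xenobiotics, 5 of 39 peaks were lower (12.8%) and 0 higher. Of these 5, 3 were at the retinoic acid receptor gene Rarb. The Rarb peak over a RefSeq start, inside the gene and 144467 bp from the nearest gene end, fell from 6.23, 6.56 and 6.48 to 5.19 and 5.29. Myc, listed with glycolysis as its regulator, fell at a peak 42924 bp away that held 85, 57 and 55 reads in Control and 11 and 7 in RORgt-KO (difference -2.88).

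Several of the remaining lists had called shares near those of all peaks, 5.19% higher and 7.12% lower. JAK-STAT genes had 4 higher and 5 lower of 80 peaks (5% and 6.25%), and NF-kB and TNF receptor genes 9 and 7 of 103 (8.74% and 6.80%). Homing genes had 8 and 6 of 116 (6.90% and 5.17%), and glycolysis genes 4 and 6 of 70 (5.71% and 8.57%). Type 2 genes had 2 and 3 of 39 (5.13% and 7.69%), and class II genes of antigen presentation 0 and 2 of 24 (0% and 8.33%). Immediate early genes had 5 and 3 of 113 (4.42% and 2.65%). The TGF-beta pathway had 0 higher and 2 lower of 77 (2.60%), at Acvr2a and Skil, below the shares of all peaks. Within these lists, Socs3, an inhibitor of STAT3 signalling, rose 32 bp from the gene from 6.46, 6.48 and 6.51 to 7.40 and 7.47 (difference 0.95). Dusp1, a phosphatase that ends kinase signalling, fell 17680 bp away from 6.94, 6.99 and 6.98 to 5.14 and 5.17 (difference -1.81). Acvr2a, an activin receptor, fell inside the gene from 6.82, 7.44 and 6.63 to 4.45 and 4.65 (difference -2.41). Arg1, arginase 1, fell 28098 bp away from 7.15, 7.11 and 6.63 to 5.19 and 5.51 (difference -1.62).

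Markers of other cell types were examined beside these lists. Among all peaks, 7.12% were lower and 5.19% higher, and in 40.1% the RORgt-KO libraries lay clear of the Control libraries. B cell markers were lower at 5 of 15 peaks and higher at 0, and their summed linear level was 1280 to 1337 in Control and 870 and 917 in RORgt-KO, without overlap. The 5 peaks lay in Blk (3), Pax5 and Ebf1, while Cd79a, Cd79b, Ms4a1 and Cd22 had no peak. T cell markers were higher at 2 and lower at 3 of 20 peaks, with overlapping sums (1111 to 1577 and 1129 to 1318). The peak over Cd3d was at 7.33, 7.24 and 7.39 in Control and 7.47 and 7.14 in RORgt-KO, and the peak beside Cd3e rose from 4.37, 4.54 and 5.26 to 5.93 and 5.65; Cd3g, Cd8a, Cd8b1 and Foxp3 had no peak. Epithelial markers summed to 892 to 1038 and to 1250 and 1269, without overlap, with 2 higher and 1 lower of 14 peaks, and Vil1, Krt19 and Krt20 had no peak. Myeloid markers had 3 higher of 17 peaks (sums of 1099 to 1363, and of 1266 and 1366), and stromal and endothelial markers 1 higher and 1 lower of 18 (1042 to 1163, and 1008 and 1055). Housekeeping genes had 1 higher of 34 peaks, and their sums were 4387 to 4716 and 4811 and 4951, likewise without overlap. The part of other cells in the changes above was not tested.

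Peaks over the start of a gene changed least often. A RefSeq start window, from 250 bases before to 50 after the start, was overlapped by 8173 peaks, of which 140 (1.71%) were called, 75 higher and 65 lower. The genes named next were chosen after their values were seen, as the largest start differences. Besides Nkg7, Klrc3, Xcl1 and Prf1, increases included Samd3, from 4.62, 4.37 and 4.38 to 5.99 and 6.04, and Acod1, the itaconate-producing enzyme of activated macrophages, from 4.69, 4.28 and 5.43 to 6.62 and 6.08. Ctla2b rose from 6.64, 7.07 and 5.92 to 8.15 and 8.26, and it has a close copy. The largest start decrease was at the olfactory receptor gene Olfr175, from 8.13, 8.57 and 7.62 to 4.99 and 4.97 (difference -3.13, SE 0.35, limma adjusted p = 9.53e-07). Cd5, an inhibitory surface receptor of T cells and some B cells, fell at its start from 43, 34 and 21 reads to 4 and 9. Siglecf, an inhibitory lectin of eosinophils, fell from 7.36, 7.43 and 7.12 to 5.24 and 5.17 (difference -2.10). Ednrb, the endothelin B receptor, fell from 8.40, 9.04 and 8.52 to 6.96 and 7.17 (difference -1.59).

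**Figure D4:**
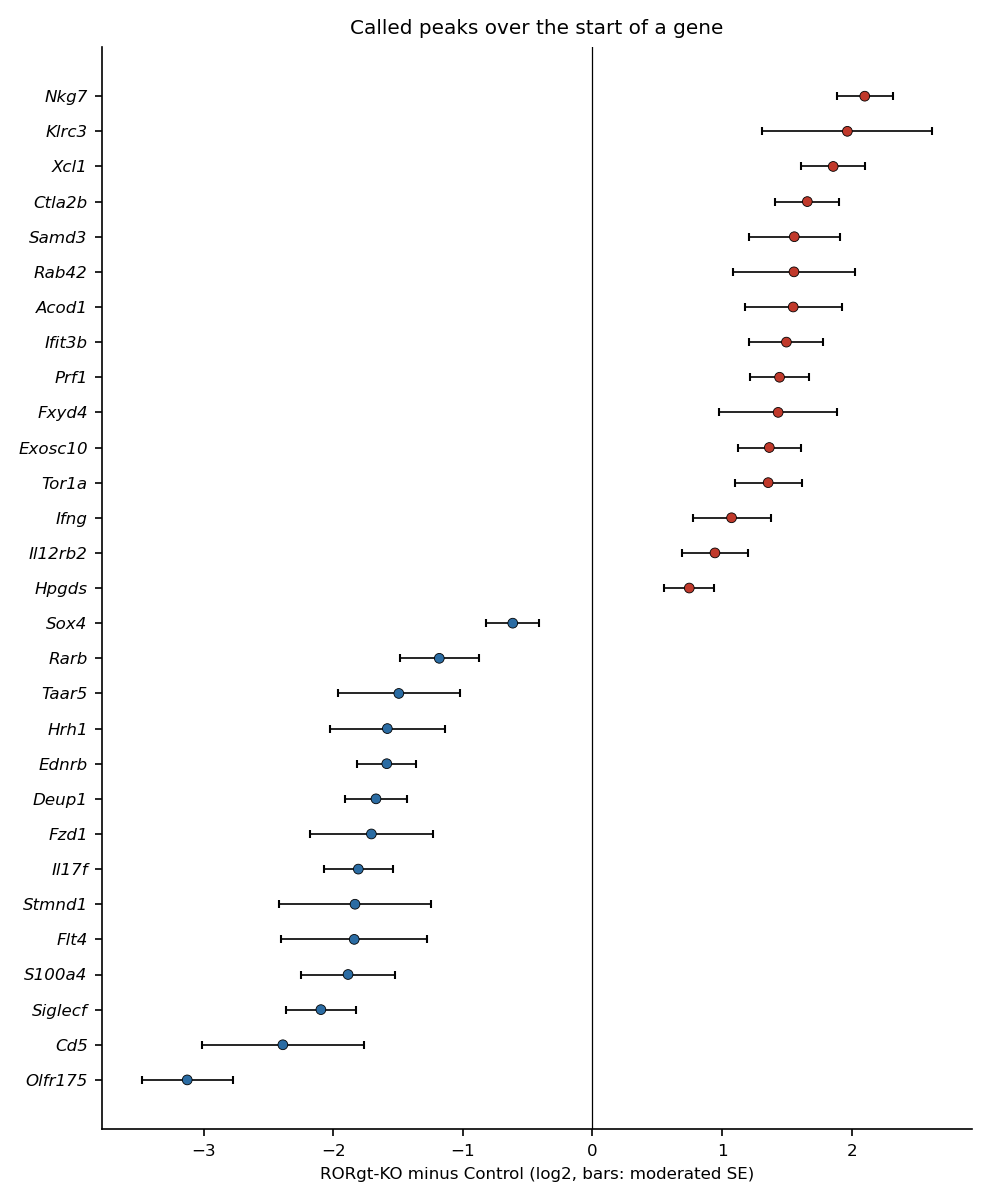
Difference (log2, RORgt-KO minus Control) with its moderated standard error for 29 called peaks over gene starts, the 12 largest in each direction and the start peaks of listed genes. Nkg7 leads the increases (2.10) and Olfr175 the decreases (-3.13).

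Called peaks lay mostly away from gene ends, and the lower ones reached farthest. Within 1 kb of a gene end, 173 of 10850 peaks were higher (1.59%) and 167 lower (1.54%). Inside genes the shares were 7.25% and 8.40% of 14157 peaks, and between genes up to 50 kb 6.46% and 8.82% of 7572. Beyond 50 kb from any protein-coding gene, 556 of 3672 peaks were lower (15.1%) and 194 higher (5.28%). Gene ends are more open, with a median control level of 7.02 beside 5.47 to 5.60 elsewhere, and the share of peaks called moves with the level. When all peaks were sorted into 5 bins of control level, the share of higher calls went down from 10.2% in the least open bin to 1.54% in the most open, and the share of lower calls was 0.565% in the least open and 9.24% to 11.6% in the upper 3. The control mean that sorts the peaks is also subtracted in the difference, and peaks with few reads cannot fall far, so this trend is partly fixed by construction. In the 3 most open bins the share of lower calls was smallest at gene ends, larger inside genes and between genes, and largest beyond 50 kb, as the plot of calls by place and level shows. The distant peak with the largest decrease, 229314 bp from a gene (chromosome 4, 13210799 to 13211326), held 197, 227 and 101 reads in Control and 18 and 4 in RORgt-KO.

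**Figure D5:**
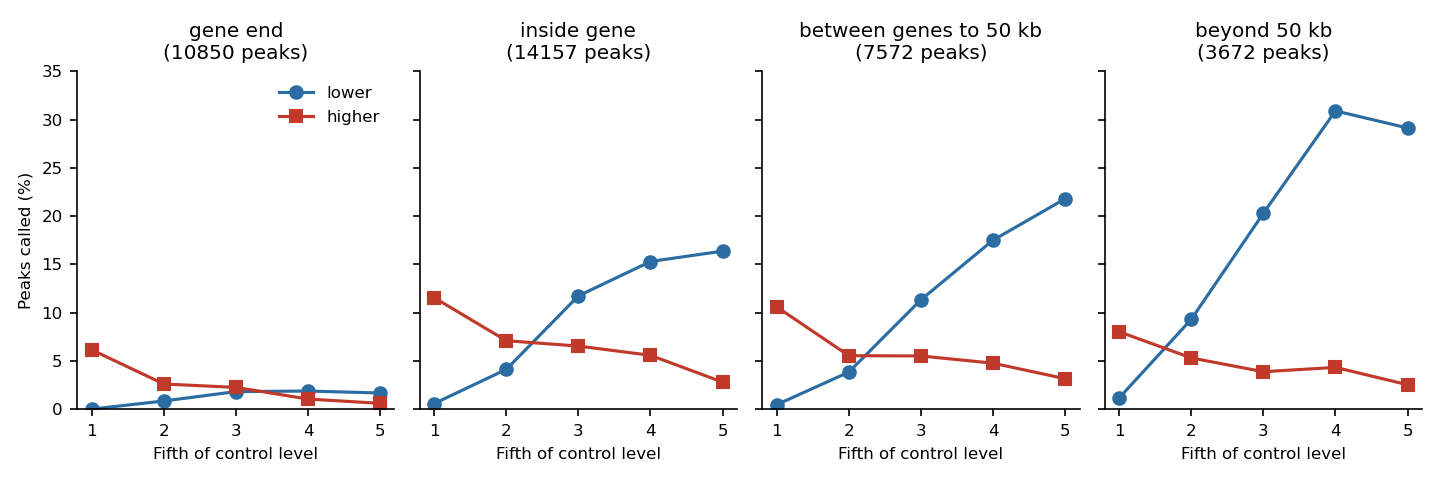
Percent of peaks called lower (blue circles) and higher (red squares) in RORgt-KO, by place (panels) and by bin of mean control level (x axis, 1 least open to 5 most open, the same 5 bins of all peaks in each panel). At gene ends both shares stay under 7%, and beyond 50 kb the lower share reaches 30.9% in bin 4.

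Neighbouring peaks tended to move together. Of 13069 adjacent peak pairs within 10 kb, 382 had both peaks called, and 345 of these (90.3%) changed in the same direction. The next peak after a lower one was also lower in 23.6% of cases, beside 6.96% after any peak, and the next after a higher one was higher in 17.0%, beside 6.17%. Neighbours share sequence context and may share fragments, so they are not independent. By chromosome, called shares ran from 8.25% on 11 and 8.83% on X to 14.6% on 6 and 16 and 15.6% on 18.

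Some single genes carried many changed peaks. Arhgap26, a GTPase-activating protein, had 8 lower and 3 higher of 30 peaks, and Lpp 6 lower and 3 higher of 29. Cdh10, a cadherin, had 5 lower of 6 peaks, whose summed reads were 678, 817 and 462 against 313 and 289. Ppp1r14c and Sncaip likewise had 5 lower of 6 peaks.

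In the other direction, Cpq, a secreted carboxypeptidase, was higher at all 5 of its peaks over 434 kb, with 252, 266 and 178 summed reads in Control and 440 and 374 in RORgt-KO. The peak over its gene end was open in both groups, at 8.22, 8.26 and 7.96 against 8.68 and 8.80, and 4 peaks inside the gene went from 0 to 12 reads per control library to 17 to 33 in the knockouts. Smndc1 was higher at 5 of 8 peaks (598, 595 and 524 reads over these 5 against 1212 and 839), and Plcb4, a phospholipase C, at 5 of 19. Ppm1h, a protein phosphatase, was higher at 5 of 22. Single peaks with large increases lay in Zdhhc14, with 8, 4 and 3 reads in Control and 72 and 59 in RORgt-KO, in Riok1, with 7, 3 and 4 against 62 and 42, and in Washc3, with 0, 7 and 5 against 55 and 34. At the 6 peaks nearest Dynlt1b, controls held 1, 7 and 5 reads and RORgt-KO 234 and 144. Dynlt1b has near-identical copies on the same chromosome, so these reads are uncertain and no fold is given.

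Large decreases at single peaks included Mlip, from 126, 124 and 77 reads to 10 and 4 (difference -4.08, SE 0.47), Nhsl1, from 158, 170 and 91 to 19 and 4 (difference -3.96, SE 0.44), and Srek1ip1, from 80, 116 and 73 to 8 and 4 (difference -3.96, SE 0.50). A peak in Bmper went from 22, 36 and 12 reads to 0 and 2, and no fold is given because the knockouts held so few. The peak in Fhit separated the knockouts, with 10 and 2 reads against 82, 93 and 45. Where gene ends closed, Slc22a8, an organic anion transporter, went from 64, 92 and 45 reads to 9 and 8, and Hsd17b13, 680 bp from the peak, from 100, 94 and 64 to 16 and 8. Gene ends that opened most included Tmem30c, from 14, 17 and 15 reads to 74 and 94 (difference 2.44, SE 0.28), and Fbxo32, a ubiquitin ligase component, from 8, 5 and 8 to 49 and 27 at 461 bp.

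The double deletion groups of the series were set against the same controls, so their values are given beside these only as levels. At the Il17f start, where Control averaged 7.82 and RORgt-KO 6.02, RORgt-Tbet-KO averaged 6.31 and RORgt-RORa-KO 4.58. At the Nkg7 start the 4 averages were 5.98, 8.08, 7.03 and 8.76 in the same order. The Ifng start averaged 4.99, 6.06, 4.72 and 6.70, and the Klrc1 peak 8.45, 6.47, 6.83 and 5.43. Differences between the deletion groups at these peaks were not tested here.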

How the data were processed

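ATAC-seq was measured in 10 libraries, of which the 3 Control and 2 RORgt-KO libraries are described here. Reads were trimmed with Trim Galore 0.62, aligned with Bowtie2 2.3.5.1, filtered with SAMtools and passed to MACS2 for peak calling, with GRCm38 as the genome, per the submitters' processing notes. Whether the libraries were pooled for peak calling is not stated in the labels or notes. The authors deposited a log2 value per peak and library, a scaled read count. Within a tolerance of 0.01 all were whole multiples of 1 read, and empty peaks held 0.9 of a read, so reads could be recovered; the labels and notes do not state the scaling factor. Columns of other samples numbered 0.

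The deposited values of all 10 libraries and 4 groups were fitted with limma 3.58.1 in R 4.3.3, with a mean-variance trend (6 residual and 22.5 prior degrees of freedom, median SE 0.30), and p-values of RORgt-KO minus Control were adjusted by the Benjamini-Hochberg method over 36251 peaks at 0.05. On simulated data with 200 changed peaks among 36251, 21% of 2-fold and 75% of 4-fold changes were recovered, with 3 false calls. Far fewer peaks were changed there than the 4463 called in the data, so these shares do not carry over to the data. Genes came from RefSeq coordinates and starts from 21263 RefSeq windows on GRCm38.p6, none on chromosome 18, where 1274 peaks lie; starts there were not analysed here. Coordinates are printed as deposited.

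The comparison, the gene lists (25 lists, 396 genes, 339 with a peak) and the rule were chosen with earlier results of these data known. The rule named the 8 largest increases and decreases whose libraries did not overlap, the 6 genes with most peaks called in each direction, the best peak of up to 4 genes per list, 6 gene-end and 3 distant peaks per direction, and, added after the values were seen, 12 start peaks per direction with those of listed genes. Other peaks of genes so named are described from the full table. Some peaks that the rule names are not reported here. Plots were made in matplotlib 3.10.9. As alternatives, the scaling, the trend, the low-value filter and the pseudocount were varied, libraries were weighted, the replicate number was used as a block, each library or X was left out, and, added after the data were seen, limma voom was run on recovered reads, and values were scaled to reads in peaks.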

Additional observations from a re-analysis of the deposited data

How the results depend on the processing

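Of 148 named peaks, 75 passed limma's threshold under every alternative in which they were tested, and 0 changed direction; the filter that leaves out the least open peaks tested 102 of them and the fit without X 147. The 4463 called peaks (1883 higher, 2580 lower) moved most when a knockout library was left out: leaving out one library at a time gave 1711 to 5092 called, 526 to 2335 higher and 1185 to 2757 lower. Without RORgt-KO replicate 1, 1711 were called (526 higher, 1185 lower), without RORgt-KO replicate 2, 2093 (856 higher, 1237 lower), and without Control replicate 2 the lower calls were 1578 and the higher 1606. With 1 knockout library left, that library is assumed to vary like the other groups. Without the mean-variance trend, higher calls were 1185; the cause was not tested. The higher share of calls, 42.2%, was 31.8% with only the 5 libraries of both groups in the fit, 30.7% without RORgt-KO replicate 1, 48.4% after median centring and 50.4% without Control replicate 2, and no scaling moved the median difference of all peaks by over 0.1. Whether the replicate numbers pair the libraries was not settled. Same-numbered deviations correlated at -0.02 and 0.04, but the deviations of 2 knockout libraries from their mean are exact opposites, so these values cannot decide it. A fit with the replicate number as a block called 5659 peaks. With 2 knockout libraries and 38 to 50 reads in a median peak, 2288 peaks with a difference of at least 2-fold were not called.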

Other observations

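Among homing genes, 8 of 116 peaks were higher and 6 lower (6.90% and 5.17%), near the shares of all peaks. S1pr1, the receptor that guides lymphocytes out of tissue, fell at a gene-end peak from 9.29, 9.43 and 9.07 in Control to 8.20 and 8.63 in RORgt-KO (log2 difference -0.85). Another of its 9 peaks was higher. Itga2, the CD49b integrin chain, fell from 70, 77 and 29 reads to 12 and 22. Itgb1, the integrin beta 1 chain, rose at 3 of 4 peaks, the one with the smallest p 38577 bp away, from 16, 24 and 18 reads to 91 and 37. The knockouts differed from each other there, and both lay above all controls, as in 99.3% of higher peaks.

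Ctla4, an inhibitory receptor, fell at 2 of 8 peaks, with the one 35488 bp from the gene going from 80, 98 and 40 reads to 15 and 7 (difference -2.73, SE 0.46), and Icos, its stimulatory relative on the same chromosome, fell 19432 bp away from 40, 42 and 32 reads to 17 and 16 (difference -1.20). Nr3c1, the glucocorticoid receptor gene, fell 3812 bp away from 7.43, 7.49 and 6.68 to 5.84 and 5.51 (difference -1.52, SE 0.31). Cd86, a costimulatory ligand, fell inside the gene from 8.17, 8.38 and 7.58 to 6.90 and 6.82 (difference -1.18), and Ciita, the master regulator of class II genes, from 7.03, 6.88 and 6.87 to 6.28 and 5.61 (difference -0.98), while H2-Aa, H2-Ab1 and Cd74 had no called peak. In the other direction, Stat3 rose at a peak inside the gene from 15, 26 and 37 reads to 124 and 56 (difference 1.77, SE 0.32), and Ptpn2, a phosphatase that restrains JAK signalling, from 22, 24 and 15 reads to 67 and 49 (difference 1.52). Prdm1, which encodes Blimp-1, had 2 higher and 1 lower of 18 peaks; 7294 bp away it rose from 6.58, 6.73 and 6.17 to 7.57 and 7.91 (difference 1.25).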
